A study of Homo sapiens with 12 samples.

Results

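The genes that set the HUTU-80 cell line apart were taken from 12 expression arrays of 3 established human cell lines. A gene was chosen where all 4 HUTU-80 arrays lay at least 2 log2 units above, or at least 2 log2 units below, every one of the 8 arrays of MDST8 and NCI-H716. Of the 19774 genes measured, 462 met this rule, 224 of them higher in HUTU-80 (1.13% of all genes) and 238 lower (1.2%). The distance between the nearest arrays of the opposite sides is called the gap. Because the values themselves chose these genes, their differences between lines are given as a description, with no test.

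The study used lentivirus to introduce microRNAs of the miR-200 family into the lines, all labelled as colorectal cancer lines whose miR-200 loci are methylated. The HUTU-80 arrays hold 1 control, 2 with the miR-200c141 cluster, whose titles add 1:3 and 1:5, and 1 with the miR-200ba429 cluster. MDST8 and NCI-H716 each have 1 control, 1 array with miR-200c141, 1 with miR-200ba429 and 1 with both clusters. Transduced cells were sorted for green fluorescence after 48 hours, cells with both clusters were those with miR-200ba429 to which the other virus was added 24 hours after the sort, and RNA was taken 7 days after transduction. The meaning of the ratios and what the control cells received are not given in the labels. Each line is a single cultured lineage, the labels name no separate cultures, and the arrays of a line carry different constructs. An SD or a p-value here therefore measures the spread between these arrays and not the spread between tumours or between independent cultures. Values below are RMA expression on the log2 scale. Lists of 4 values follow the order control, miR-200c141 1:3, miR-200c141 1:5 and miR-200ba429 for HUTU-80, and control, miR-200c141, miR-200ba429 and both clusters for the other lines.

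HUTU-80 is catalogued in cell banks as a line from an adenocarcinoma of the duodenum, the first segment of the small intestine, although the labels give it as colorectal. Gut epithelium is built by the transcription factors CDX1, CDX2, GATA4 and GATA6, is joined by adhesion proteins such as E-cadherin (CDH1) and EPCAM, and carries villin (VIL1), cadherin 17 (CDH17), keratin 20 (KRT20), galectin 4 (LGALS4) and the mucin MUC2. Genes that separate cultured lines in general reflect tissue of origin, lost or silenced genes, and changes acquired in culture, and expression arrays read the sum of these.

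The intestinal identity of the label was checked first. A level of 5.43, the highest of 23 nonspecific control probe sets on any array, served as background. CDX1, CDX2, VIL1, CDH17, KRT20, LGALS4, MUC2, GATA4 and the duodenal and pancreatic factor PDX1 were at or below it on all 4 HUTU-80 arrays. On NCI-H716 arrays, by contrast, CDH17 lay between 10.89 and 11.08 and MUC2 between 9.26 and 10.80. Of 44 intestinal differentiation genes measured, 40 were below background on every HUTU-80 array. Of all genes, 46.6% to 47.2% were above background on those arrays. The intestinal genes above background on the control arrays numbered 0 for MDST8, 3 for HUTU-80 and 21 for NCI-H716. Their scarcity was thus shared with MDST8 and does not set HUTU-80 apart from it. The sum of the linear intensities of the 44 genes was 768 to 886 on HUTU-80 arrays and 443 to 35096 on the others. The intestinal gene above background in HUTU-80 and apart from both other lines was LGR5, a receptor of intestinal stem cells, at 5.69 to 6.19 against 2.44 to 3.20 on the 8 others. A further probe set for LGR5 was below background. The other 3 genes above background in HUTU-80 were DPP4, CA2 and HNF4G, which limma did not call in either direction against both lines. GATA6 gave 8.06, 8.57, 8.55 and 9.08 on the HUTU-80 arrays, against 6.12, 6.22, 6.10 and 6.09 on the MDST8 arrays and 4.18, 5.93, 4.62 and 6.01 on the NCI-H716 arrays. The HUTU-80 arrays were thus all above the others for GATA6, with a gap of 1.85 that fell short of the rule.

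A pair of adhesion markers differed between the HUTU-80 arrays. EPCAM gave 4.42, 10.36, 10.63 and 9.28 on the HUTU-80 arrays, against 3.52, 3.31, 3.39 and 3.41 on the MDST8 arrays and 9.29, 12.18, 11.61 and 12.38 on the NCI-H716 arrays. The HUTU-80 control was below background, while the 3 HUTU-80 arrays with a construct were well above it. CDH1 gave 3.20, 6.01, 5.84 and 5.30 on the HUTU-80 arrays, so that the control and the miR-200ba429 array lay below background and the other 2 above it. The arrays of the line show few defining intestinal genes, and HUTU-80 is called here by its name and not by a tissue. In a bulk sample, fewer cells expressing a gene and less RNA per cell cannot be told apart.

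The gap had a median of 3.29 for the genes higher in HUTU-80 and 3.05 for the lower ones, and reached 8.74 and 7.84. Just inside it were ADGRL1 (2.017), SHANK3 (2.029) and OSBPL10 (2.030) among the higher genes and TSC22D3 (2.002), ZNF785 (2.003) and PPP1R3B (2.003) among the lower. Just outside were FUOM (1.992), PPP2R3B (1.987) and ULK2 (1.983) on the higher side and CYTL1 (1.997), FLRT3 (1.996) and AKR1C1 (1.986) on the lower. Most differences crossed the background level. Of the 224 higher genes, 168 were at background on all 8 other arrays, and of the 238 lower genes, 182 were at background on all 4 HUTU-80 arrays. For such genes the fold is a lower bound, the mean of the bright side over the background level, and is written as "at least". The same rule applied to the other lines gave 507 genes for MDST8 (391 higher and 116 lower) and 680 for NCI-H716 (463 higher and 217 lower).

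**Figure D1:**
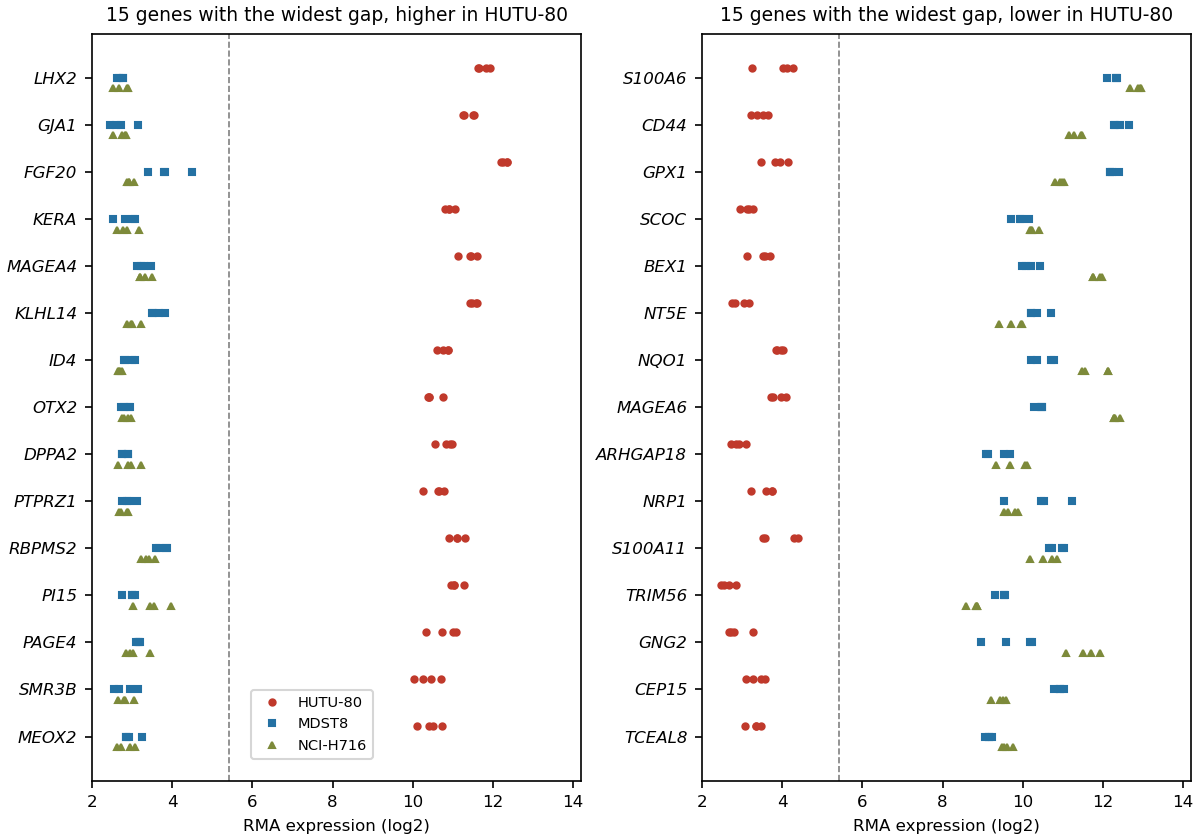
RMA expression (log2, x axis) of the 15 genes with the widest gap in each direction, by array; each symbol is 1 array, with HUTU-80 as red circles, MDST8 as blue squares and NCI-H716 as green triangles, and the dashed line marks the background level of 5.43. The 4 HUTU-80 arrays lie together on one side of that line and the 8 others on the opposite side for every gene shown.

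The control arrays were also set aside as a check. Chosen on the 9 arrays with a construct alone, 250 genes were higher and 271 lower in HUTU-80. In the 3 control arrays, which had no part in that choice, 233 of the 250 were higher by at least 2 log2 units, against 1.89% of all genes, and 256 of the 271 were lower by as much, against 2.13% of all genes. All of these genes lay on the same side in the controls, the smallest distance being 0.70 for the higher and 0.94 for the lower genes. Control and construct arrays of a line come from the same line, so the check covers the constructs and not other sources of HUTU-80. With 1 control array per line there is no test.

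**Figure D2:**
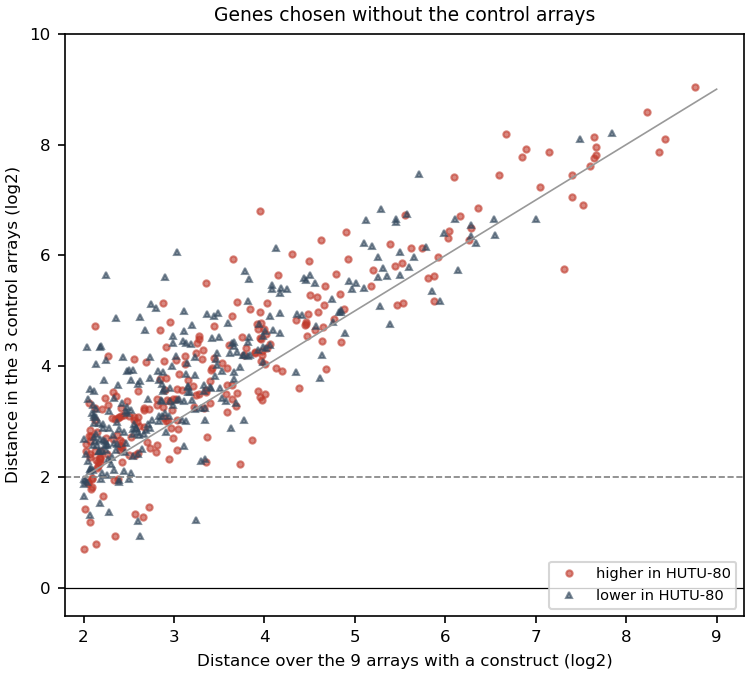
Distance between HUTU-80 and the nearest array of the other lines over the 9 arrays with a construct (x axis, log2) against the distance in the 3 control arrays (y axis, log2), for genes chosen on the 9 arrays; red circles are the 250 genes higher and dark triangles the 271 genes lower in HUTU-80. Points above the dashed line at 2 are the 233 higher and 256 lower genes that were at least 2 log2 units apart in the controls as well, and no point lies below 0.

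Both ATPases of the chromatin remodelling complex SWI/SNF were lower in HUTU-80. The complex slides nucleosomes and opens DNA, and each assembly holds either SMARCA4 or SMARCA2 as the motor. SMARCA4 gave 6.64, 6.90, 7.11 and 7.15 on the HUTU-80 arrays, against 10.47, 10.40, 10.22 and 10.12 on the MDST8 arrays and 10.18, 10.08, 10.12 and 10.03 on the NCI-H716 arrays. SMARCA2 gave 2.81, 3.07, 3.00 and 2.82 on the HUTU-80 arrays, against 8.03, 8.11, 8.03 and 8.23 on the MDST8 arrays and 5.92, 6.17, 6.33 and 6.01 on the NCI-H716 arrays. The groups did not overlap for either gene, with gaps of 2.88 for SMARCA4 and 2.85 for SMARCA2. SMARCA2 was at background on every HUTU-80 array, at least 3.19-fold below the mean of the others, whereas SMARCA4 stayed above background in HUTU-80. The next brightest probe sets gave gaps of 2.72 for SMARCA4 and 2.91 for SMARCA2. Across the 8 further probe sets of SMARCA4, 4 were at least 2 apart and 1 pointed the opposite way, and of the 6 further ones of SMARCA2 1 was at least 2 apart. These subunits were gathered as a family after their values had been seen.

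The other subunits did not share this pattern. Of 28 subunits measured, 11 were called higher in HUTU-80 than in each other line and 3 lower by limma (adjusted p under 0.05 in both contrasts, against 12.6% of all genes called higher and 8.82% called lower). The third one lower was BCL7B, at 7.20 in HUTU-80 against 7.70 in MDST8 and 7.64 in NCI-H716. Centring each array on its median, which raised HUTU-80 against the others by 0.267 over the whole scale, gave 14 higher and 2 lower, and BCL7B was then not called. Over all 19774 genes, centring changed the calls from 2483 to 4900 higher and from 1744 to 1205 lower. Counts after centring are given below where they differ most. They are to be read against those calls and not against 12.6% and 8.82%. Core and targeting subunits called higher included SMARCC1 at 10.18 in HUTU-80 against 9.80 in MDST8 and 8.95 in NCI-H716. ARID1A, the subunit that defines one form of the complex, was at 10.37 in HUTU-80 against 8.74 in MDST8 and 9.83 in NCI-H716. SMARCB1, a core subunit lost in rhabdoid tumours, was at 7.99 in HUTU-80 against 7.40 in MDST8 and 7.41 in NCI-H716. The widest gap among these was that of DPF1, a subunit known from neurons, at 1.01. The family's median difference, the mean of the HUTU-80 arrays minus that of the 8 others, was 0.49, and that of all genes 0.027.

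**Figure D3:**
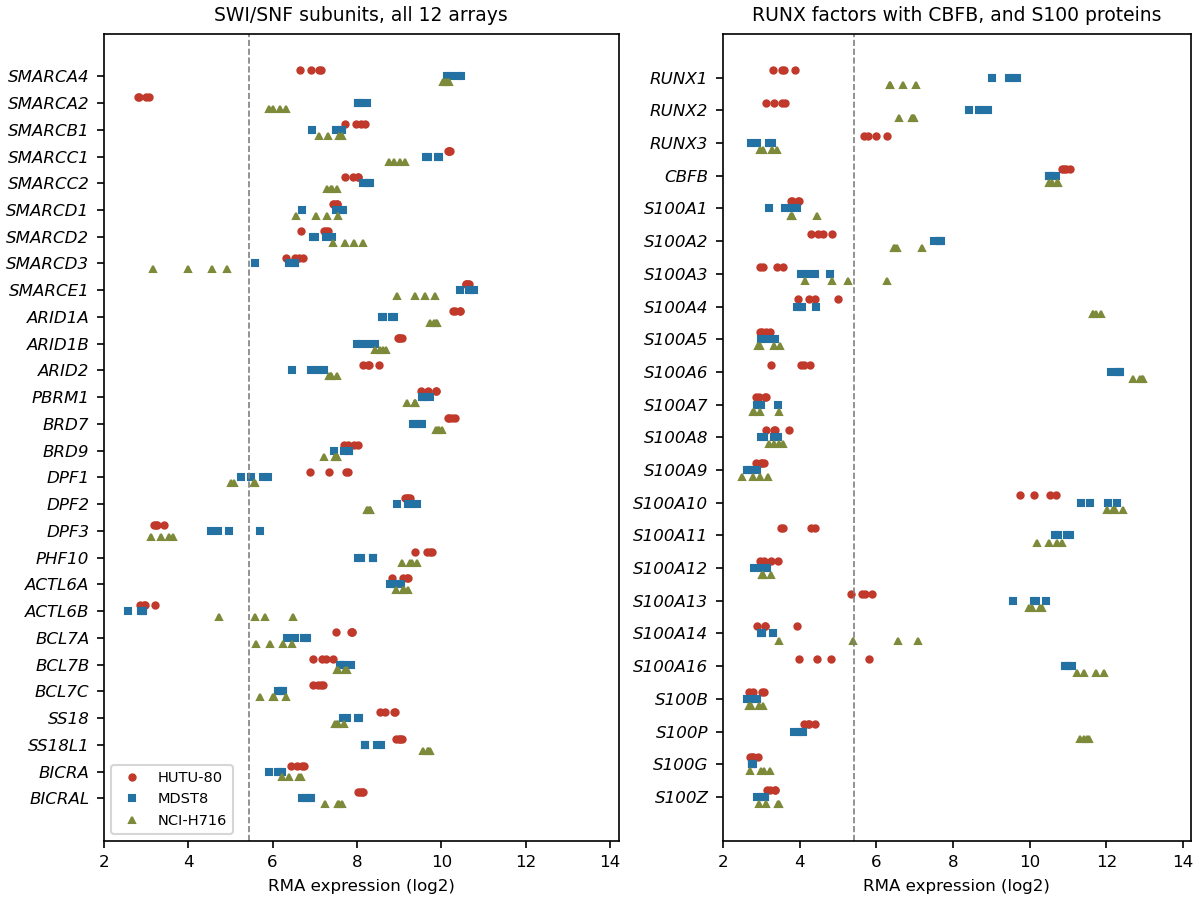
RMA expression (log2, x axis) of 28 SWI/SNF subunits (left) and of the RUNX factors, their partner CBFB and 19 S100 proteins (right), 1 symbol per array, with HUTU-80 as red circles, MDST8 as blue squares, NCI-H716 as green triangles and the background level of 5.43 as the dashed line. SMARCA4 and SMARCA2 are the subunits with all HUTU-80 arrays at least 2 log2 units below the others, and S100A6, S100A11, S100A13 and S100A16 are the S100 genes with that pattern.

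The start regions of 4 of the genes are shown, the pair of SWI/SNF ATPases and the genes with the widest gap in each direction, S100A6 (lower) and LHX2 (higher). They are 300 bases each from RefSeq on build GRCh38.p14, 250 before and 50 after the annotated start, read along the gene's strand, with the dinucleotide CG, the site of DNA methylation, in capitals. SMARCA4 lies at chr19:10960780-10961079 (plus strand), SMARCA2 at chr9:2015097-2015396 (plus strand), S100A6 at chr1:153535942-153536241 (minus strand) and LHX2 at chr9:124011518-124011817 (plus strand).
SMARCA4: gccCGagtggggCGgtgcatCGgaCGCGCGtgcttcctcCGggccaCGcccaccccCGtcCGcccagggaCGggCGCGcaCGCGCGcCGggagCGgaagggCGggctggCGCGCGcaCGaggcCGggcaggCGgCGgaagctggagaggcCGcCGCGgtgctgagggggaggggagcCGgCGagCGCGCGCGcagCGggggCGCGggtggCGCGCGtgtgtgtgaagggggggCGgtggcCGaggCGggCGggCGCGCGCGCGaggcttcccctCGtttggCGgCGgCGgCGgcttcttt
SMARCA2: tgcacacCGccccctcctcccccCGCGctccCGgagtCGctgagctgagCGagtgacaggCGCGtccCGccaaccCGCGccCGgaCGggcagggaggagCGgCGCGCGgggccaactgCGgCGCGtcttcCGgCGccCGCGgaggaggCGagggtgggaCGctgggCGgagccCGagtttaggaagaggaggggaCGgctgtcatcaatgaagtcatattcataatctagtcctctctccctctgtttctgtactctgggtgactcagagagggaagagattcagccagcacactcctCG
S100A6: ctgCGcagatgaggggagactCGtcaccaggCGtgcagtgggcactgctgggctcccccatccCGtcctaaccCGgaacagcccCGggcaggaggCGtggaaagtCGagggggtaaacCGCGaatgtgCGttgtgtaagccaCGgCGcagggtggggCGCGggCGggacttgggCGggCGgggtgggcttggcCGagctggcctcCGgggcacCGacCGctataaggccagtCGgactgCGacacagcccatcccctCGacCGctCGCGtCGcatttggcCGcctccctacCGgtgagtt
LHX2: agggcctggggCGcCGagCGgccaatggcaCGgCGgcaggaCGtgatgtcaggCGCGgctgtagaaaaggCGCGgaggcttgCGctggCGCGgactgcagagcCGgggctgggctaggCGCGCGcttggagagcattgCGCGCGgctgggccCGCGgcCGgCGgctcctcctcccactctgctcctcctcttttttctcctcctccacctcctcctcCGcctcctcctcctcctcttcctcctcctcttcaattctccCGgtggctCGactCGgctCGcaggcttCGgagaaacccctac
The windows hold 55 CG in SMARCA4, 30 in SMARCA2, 31 in S100A6 and 30 in LHX2. CG reads the same on both strands. At least 1 CG occurs in 98.3% and at least 20 in 57.2% of the 15397 start regions matched to a measured gene, whose median is 22. Over the 182 lower genes with a start region the median was 18, with 45.1% holding at least 20. Genes above background on all 8 other arrays, as the lower genes mostly are by choice, had a median of 27, with 77.2% holding at least 20. Over the 167 higher genes with a start region the median was 24, with 58.1% holding at least 20, and genes above background on all 4 HUTU-80 arrays had a median of 27. Methylation was not measured on these arrays.

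The gene with the widest gap of those named here was LHX2, and OTX2, MEOX2 and ID4, other regulators of transcription in the embryo, were also among the 15 named for their gap. LHX2, a LIM homeodomain factor of the forebrain, eye and hair follicle, gave 11.93, 11.64, 11.82 and 11.65 on the HUTU-80 arrays, against 2.76, 2.62, 2.67 and 2.76 on the MDST8 arrays and 2.89, 2.88, 2.53 and 2.66 on the NCI-H716 arrays. Its gap was 8.74, at least 80.4-fold, and the next probe set gave a gap of 6.35. OTX2, a homeodomain factor of the early embryo and the forebrain, was at 10.49 ± 0.19 in HUTU-80, against 2.85 ± 0.10 in MDST8 and 2.86 ± 0.10 in NCI-H716 (SD, n = 4 arrays). MEOX2, a homeodomain factor of mesoderm, was at 10.43 ± 0.26 in HUTU-80, against 2.96 ± 0.20 in MDST8 and 2.84 ± 0.20 in NCI-H716. ID4, which blocks DNA binding by basic helix-loop-helix factors, was at 10.61 to 10.89 on the HUTU-80 arrays against 2.64 to 3.07 on the 8 others. These genes were at background throughout MDST8 and NCI-H716.

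PAX6 and SOX2, other developmental regulators, were high in HUTU-80 and intermediate in MDST8. PAX6, a factor of eye, brain and endocrine pancreas, gave 11.54, 11.52, 11.48 and 11.43 on the HUTU-80 arrays, against 8.48, 9.05, 8.61 and 8.70 on the MDST8 arrays and 4.09, 4.03, 3.46 and 4.01 on the NCI-H716 arrays. MDST8 lay nearer to HUTU-80 than NCI-H716 did. SOX2, a factor of stem cells, foregut and brain, followed the same order, with 11.31 to 11.69 against 2.80 to 9.36 on the 8 others and a gap of 1.94 that fell just short of the rule. NR5A2, a nuclear receptor of gut, liver and pancreas, was at 8.92 to 9.32 on the HUTU-80 arrays against 3.33 to 4.61 on the 8 others. Among 22 proximal gut transcription factors, 6 were called higher (27.3%, against 12.6% of all genes) and 4 lower (18.2%, against 8.82%). The lower ones included SOX9, a factor of crypt cells, at 4.04 in HUTU-80 against 10.66 in MDST8 and 6.74 in NCI-H716. HOXB4, a positional factor, was the HOX gene chosen, at 7.66 to 8.28 on the HUTU-80 arrays against 4.54 to 5.57 on the 8 others. Of 29 HOX genes measured, 7 were called higher (24.1%) and 3 lower (10.3%), and after centring 9 and 1.

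DPPA2, SALL4, GPC3 and APELA, which are used as markers of embryonic stem cells or germ cell tumours or are known from early embryos, were chosen as higher. DPPA2, a chromatin protein of pluripotent cells, gave 10.83, 10.93, 10.97 and 10.56 on the HUTU-80 arrays, against 2.75, 2.74, 2.90 and 2.91 on the MDST8 arrays and 3.22, 2.65, 2.89 and 2.96 on the NCI-H716 arrays. SALL4, a zinc finger factor of stem cells and fetal liver, gave 9.99, 10.80, 10.51 and 10.27 on the HUTU-80 arrays, against 3.60, 4.21, 4.24 and 4.04 on the MDST8 arrays and 3.66, 3.87, 3.77 and 3.44 on the NCI-H716 arrays. All HUTU-80 arrays were high for both genes, and all arrays of the other lines were at background. GPC3, a cell surface proteoglycan of fetal tissue, was at 9.19 to 9.40 on the HUTU-80 arrays against 2.98 to 3.36 on the 8 others, although its other probe set was below background. APELA, which encodes a peptide hormone of early embryos, was at 9.23 to 9.71 on the HUTU-80 arrays against 2.97 to 3.64 on the 8 others. Of 24 such genes measured, a family gathered after its values had been seen, 5 were chosen by the gap rule. Its shares therefore describe the family and are no test. By limma 8 were called higher (33.3%, against 12.6% of all genes) and 1 lower (4.17%, against 8.82%), 11 and 1 after centring. Below background on all 12 arrays were 14. Those at background include NANOG, LIN28A and DPPA4, core markers of pluripotent cells. KLF4, a reprogramming factor also made by gut epithelium, was the gene called lower, at 6.19 in HUTU-80 against 7.33 in MDST8 and 10.48 in NCI-H716.

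The fibroblast growth factors FGF20, FGF10 and FGF8 were chosen as higher and FGF13 as lower. FGF20, a ligand of the inner ear and kidney, gave 12.35, 12.25, 12.35 and 12.19 on the HUTU-80 arrays, against 4.49, 3.41, 3.80 and 3.83 on the MDST8 arrays and 2.88, 2.94, 2.92 and 3.04 on the NCI-H716 arrays. FGF10, a mesenchymal ligand that drives budding of lung and limb, gave 8.67, 8.58, 8.40 and 8.52 on the HUTU-80 arrays, against 2.94, 2.77, 2.57 and 2.88 on the MDST8 arrays and 2.77, 3.20, 2.81 and 2.66 on the NCI-H716 arrays. FGF8, a ligand of limb and brain patterning, was at 6.34 to 7.31 on the HUTU-80 arrays against 2.47 to 2.95 on the 8 others. All 3 were at background in the other lines, and the bounds were at least 116-fold, 8.65-fold and 2.73-fold. FGF13, an intracellular relative that binds sodium channels, went the other way, with 4.38 to 5.05 on the HUTU-80 arrays against 8.65 to 10.22 on the 8 others. Of 22 family members measured, again gathered after the values had been seen, 7 were called higher (31.8%, against 12.6% of all genes) and 1 lower (4.55%, against 8.82%). After centring 14 were called higher and 1 lower, and 11 of the 22 were below background on all 12 arrays. FGFR2 and FGFR3, receptors for these ligands, were called higher, FGFR2 at 9.64 in HUTU-80 against 3.60 in MDST8 and 8.76 in NCI-H716 and FGFR3 at 8.27 in HUTU-80 against 3.28 in MDST8 and 6.13 in NCI-H716, both named after their values had been seen.

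WIF1, BAMBI, BMP7 and FST, which act in Wnt, BMP or activin signalling, were also chosen as higher. Wnt ligands stabilise beta-catenin, which switches on feedback genes, and BMP ligands act through SMAD proteins and are held back by secreted antagonists. In the Wnt list, 10 of 29 genes were called higher (34.5%, against 12.6% of all genes) and 5 lower (17.2%, against 8.82%). AXIN2, a feedback gene, was at 11.19 in HUTU-80 against 8.73 in MDST8 and 4.34 in NCI-H716, with a gap of 1.88. WIF1, a secreted Wnt inhibitor, was at 6.46 to 7.48 on the HUTU-80 arrays against 2.62 to 3.21 on the 8 others. BAMBI, a decoy receptor for TGF-beta and BMP, was at 11.24 to 11.35 on the HUTU-80 arrays against 7.16 to 9.08 on the 8 others. In the TGF-beta and BMP list, 8 of 43 genes were called higher (18.6%) and 6 lower (14%), and after centring 12 and 4. BMP7, a ligand, was at 7.88 to 8.14 on the HUTU-80 arrays against 3.51 to 5.08 on the 8 others. FST, which binds and neutralises activin, gave 10.94, 10.82, 10.76 and 10.62 on the HUTU-80 arrays, against 6.60, 5.01, 6.82 and 5.31 on the MDST8 arrays and 5.78, 5.10, 5.00 and 4.90 on the NCI-H716 arrays. The HUTU-80 values of FST were tight, while MDST8 varied between arrays.

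Further genes of the cell surface among those named were GJA1, PCDH18, PTPRZ1 and EPHA7, chosen as higher, and EPHA4, chosen as lower. GJA1, which encodes the gap junction protein connexin 43, gave 11.25, 11.27, 11.52 and 11.49 on the HUTU-80 arrays, against 3.14, 2.71, 2.45 and 2.61 on the MDST8 arrays and 2.82, 2.52, 2.76 and 2.85 on the NCI-H716 arrays. Its gap was 8.11, at least 62-fold. PCDH18, a protocadherin, was at 12.30 to 12.54 on the HUTU-80 arrays against 3.91 to 6.91 on the 8 others. PTPRZ1, a receptor phosphatase of glia, was at 10.26 to 10.78 on the HUTU-80 arrays against 2.68 to 3.11 on the 8 others. EPHA7, an ephrin receptor, was at 11.18 to 11.74 on the HUTU-80 arrays against 3.11 to 6.56 on the 8 others, whereas its relative EPHA4 was lower, at 5.18 to 5.998 on the HUTU-80 arrays against 8.14 to 9.47 on the 8 others.

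DSC1, DSC2, DSC3 and DSG1, desmosomal cadherins, which hold epithelial cells together and are best known from skin, were chosen as higher. DSC2 gave 10.60, 10.86, 10.96 and 11.14 on the HUTU-80 arrays, against 2.92, 2.76, 2.84 and 3.12 on the MDST8 arrays and 5.57, 5.98, 5.14 and 5.32 on the NCI-H716 arrays. DSC1 gave 8.80, 8.33, 8.03 and 8.51 on the HUTU-80 arrays, against 3.49, 3.10, 3.20 and 3.19 on the MDST8 arrays and 3.24, 3.18, 3.10 and 3.15 on the NCI-H716 arrays. DSG1 gave 7.88, 8.65, 8.49 and 8.47 on the HUTU-80 arrays, against 2.74, 3.00, 2.89 and 2.71 on the MDST8 arrays and 2.78, 2.88, 2.97 and 2.98 on the NCI-H716 arrays. The HUTU-80 arrays were above background throughout, the MDST8 arrays below it throughout, and 2 of the 4 NCI-H716 arrays above it for DSC2 alone. DSC3 was at 8.51 to 9.07 on the HUTU-80 arrays against 3.07 to 4.56 on the 8 others. Of the 7 desmosomal cadherins measured, a family gathered after the values had been seen, 6 were called higher (85.7%, against 12.6% of all genes), DSG2 not among them with means of 11.75 in HUTU-80 against 9.27 in MDST8 and 11.36 in NCI-H716. DSG3 and DSG4 lay near the background level, DSG3 at 5.26 to 5.86 on the HUTU-80 arrays against 2.65 to 3.40 on the 8 others and DSG4 at 4.83 to 5.54 on the HUTU-80 arrays against 3.01 to 5.11 on the 8 others, and the arrays of DSG4 overlapped between HUTU-80 and NCI-H716. In the list of epithelial markers, 0 genes were chosen as higher and 1, KRT18, as lower. CLDN1, a claudin gene outside that list and named after its values had been seen, was chosen as higher. It was 7.42 apart in the control arrays. KRT18, a keratin of simple epithelia, gave 4.38, 5.997, 5.86 and 5.47 on the HUTU-80 arrays, against 9.89, 11.75, 10.55 and 11.79 on the MDST8 arrays and 11.42, 12.17, 11.89 and 12.30 on the NCI-H716 arrays. Of 43 epithelial markers, 1 was called higher (2.33%) and 2 lower (4.65%, against 8.82% of all genes), and 30 were below background on every HUTU-80 array. The markers above background on the control arrays numbered 2 for MDST8, 6 for HUTU-80 and 21 for NCI-H716. The sum of the linear intensities of the 43 markers was 3286 to 6350 on HUTU-80 arrays and 1596 to 34391 on the others.

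Small leucine-rich proteoglycans, which organise collagen fibres in connective tissue, included 3 chosen genes, all higher. KERA, keratocan of the cornea, gave 10.91, 10.81, 11.06 and 10.90 on the HUTU-80 arrays, against 2.52, 2.82, 3.02 and 3.07 on the MDST8 arrays and 2.77, 2.88, 2.62 and 3.16 on the NCI-H716 arrays. DCN, decorin, gave 11.24, 10.87, 10.62 and 10.78 on the HUTU-80 arrays, against 5.48, 3.00, 3.02 and 3.05 on the MDST8 arrays and 3.36, 3.27, 3.13 and 3.31 on the NCI-H716 arrays. EPYC, epiphycan of cartilage, gave 9.68, 7.47, 8.09 and 7.81 on the HUTU-80 arrays, against 2.81, 2.99, 2.84 and 3.08 on the MDST8 arrays and 2.88, 2.88, 3.21 and 3.53 on the NCI-H716 arrays. The HUTU-80 arrays were high for all 3 genes, the MDST8 control was the one other array above background (for DCN), and EPYC was highest on the HUTU-80 control. LUM, lumican, was high in all lines, at 11.86 in HUTU-80 against 9.07 in MDST8 and 11.29 in NCI-H716. The other 6 proteoglycans of this type were not called, and 2 of them were called higher after centring. Of 48 mesenchymal markers, 6 were called higher (12.5%, against 12.6% of all genes) and 9 lower (18.8%, against 8.82%), and 27 below background on every HUTU-80 array.

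Genes chosen for a wide gap were in several cases neighbours on a chromosome, in the gene order of the RefSeq table. Runs of at least 3 chosen genes could have up to 4 measured genes between neighbours, while pairs were counted only where directly adjacent. By this rule 57 of the 462 genes lay in 22 runs of the same direction, and 12 runs held at least 3. DSC3, DSC2, DSC1 and DSG1 are adjacent on chromosome 18. EPYC, KERA and DCN are on chromosome 12 with LUM between them. GPC4, GPC3 and CCDC160 are adjacent on chromosome X, with CCDC160 at 9.22 in HUTU-80 against 4.57 in MDST8 and 3.09 in NCI-H716. KCNJ16, KCNJ2-AS1 and KCNJ2, which encode a pair of inward rectifier potassium channels and an antisense RNA, are adjacent on chromosome 17, with KCNJ2 at 11.77 in HUTU-80 against 6.53 in MDST8 and 3.10 in NCI-H716. Among the lower genes, S100A6, S100A16 and S100A13 lie in the S100 cluster on chromosome 1. BBX, CD47 and IFT57 are near each other on chromosome 3, with CD47, a signal that restrains phagocytes, at 4.33 in HUTU-80 against 10.65 in MDST8 and 9.96 in NCI-H716. SP140L and SP100, which encode nuclear body proteins, are adjacent on chromosome 2, with SP100 at 2.91 in HUTU-80 against 9.59 in MDST8 and 7.62 in NCI-H716. The runs were found, and their genes named, after the values had been seen, and how often such runs arise among other genes was not tested.

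**Figure D4:**
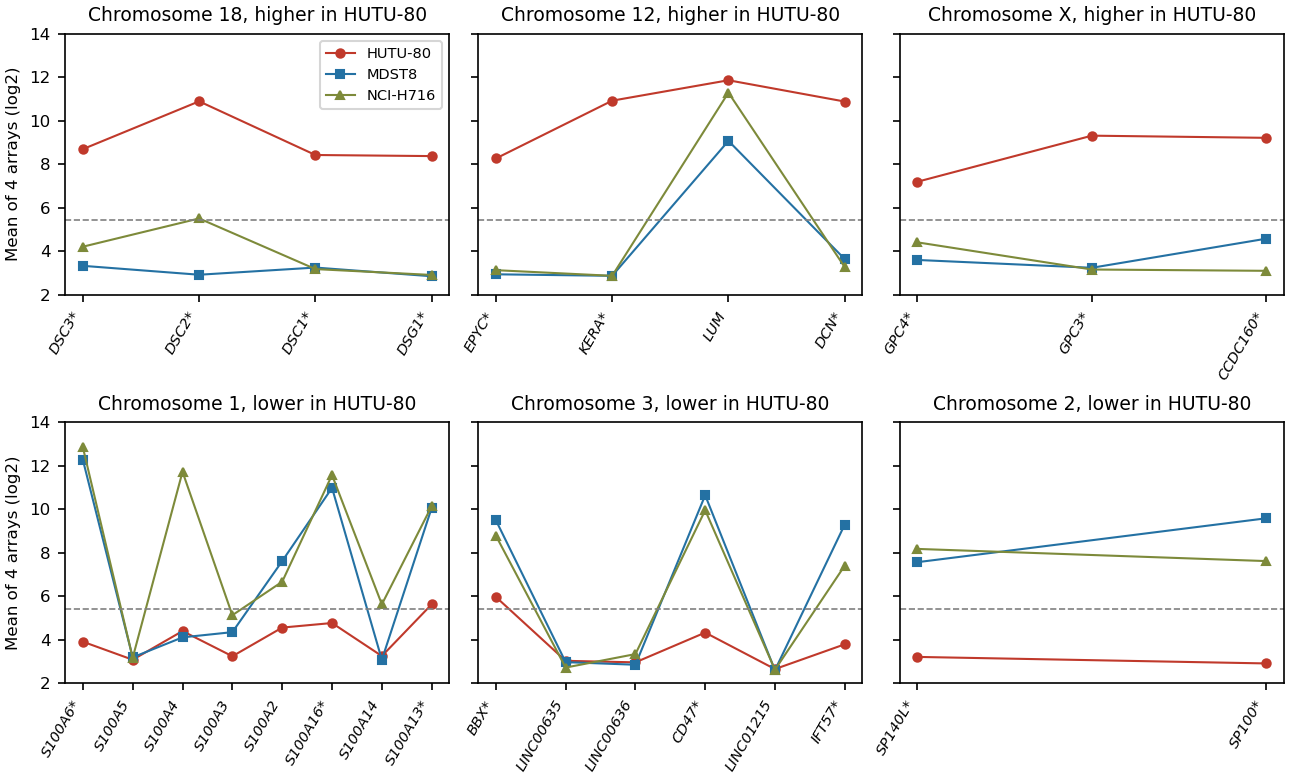
Mean RMA expression of the 4 arrays of each line (log2, y axis) for genes in chromosomal order (x axis, not to scale) in 6 runs of neighbouring genes, with chosen genes marked by an asterisk, HUTU-80 in red circles, MDST8 in blue squares, NCI-H716 in green triangles and the background level of 5.43 dashed. In the upper runs HUTU-80 lies above the other lines at every asterisk and LUM is high in all 3 lines, and in the lower runs HUTU-80 lies below the other lines at every asterisk.

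The genes lower in HUTU-80 were led by S100A6, a small calcium-binding protein of proliferating and migrating cells. S100A6 gave 4.11, 4.27, 4.03 and 3.24 on the HUTU-80 arrays, against 12.32, 12.35, 12.11 and 12.32 on the MDST8 arrays and 12.68, 12.93, 12.86 and 12.96 on the NCI-H716 arrays. All 4 HUTU-80 arrays were below background, at least 140.9-fold below the mean of the 8 others. A further probe set of S100A6 kept the direction with a gap of 0.48. S100A11 gave 3.53, 4.30, 3.57 and 4.40 on the HUTU-80 arrays, against 10.74, 10.98, 10.65 and 11.04 on the MDST8 arrays and 10.18, 10.72, 10.51 and 10.85 on the NCI-H716 arrays. S100A16 was at 3.97 to 5.81 on the HUTU-80 arrays against 10.93 to 11.93 on the 8 others, and S100A13 was at 5.34 to 5.89 on the HUTU-80 arrays against 9.55 to 10.44 on the 8 others. Of 19 S100 genes measured, a family gathered after the values had been seen, 7 were called lower (36.8%, against 8.82% of all genes) and 0 higher by limma, with 0 higher at an unadjusted p under 0.05 as well. S100A10, the partner of annexin A2, was called lower yet remained well above background, at 10.27 in HUTU-80 against 11.81 in MDST8 and 12.21 in NCI-H716.

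CD44, NT5E, NRP1 and TIMP1 were among the genes at background on every HUTU-80 array. CD44, the hyaluronan receptor, gave 3.38, 3.24, 3.53 and 3.66 on the HUTU-80 arrays, against 12.65, 12.31, 12.44 and 12.29 on the MDST8 arrays and 11.49, 11.29, 11.46 and 11.15 on the NCI-H716 arrays. Its gap was 7.49, and 7 of its 12 further probe sets were at least 2 apart. NT5E (CD73), which makes adenosine outside the cell, was at 2.74 to 3.18 on the HUTU-80 arrays against 9.40 to 10.70 on the 8 others. NRP1, a co-receptor for semaphorins and VEGF, was at 3.22 to 3.74 on the HUTU-80 arrays against 9.53 to 11.23 on the 8 others. TIMP1, an inhibitor of matrix metalloproteinases, was at 3.26 to 5.11 on the HUTU-80 arrays against 10.43 to 11.14 on the 8 others. ITGA2 and LAMB1, an integrin and a laminin subunit of basement membrane contact, were also lower, ITGA2 at 4.87 to 7.16 on the HUTU-80 arrays against 9.93 to 11.14 on the 8 others and LAMB1 at 6.63 to 7.93 on the HUTU-80 arrays against 10.16 to 10.92 on the 8 others. MYLK, myosin light chain kinase, was at 3.27 to 3.88 on the HUTU-80 arrays against 6.32 to 11.39 on the 8 others. PRRX1, a mesenchymal factor, was at 2.49 to 3.00 on the HUTU-80 arrays against 6.04 to 9.94 on the 8 others, but its other probe set overlapped between the lines. The list of integrins and laminins had 4 of 29 called higher and 3 lower, shares near the 12.6% and 8.82% of all genes.

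MET and EGFR, growth factor receptors of epithelial tumours, were chosen as lower. MET, the receptor of hepatocyte growth factor, gave 5.52, 5.75, 5.43 and 5.49 on the HUTU-80 arrays, against 10.87, 10.87, 10.69 and 10.83 on the MDST8 arrays and 10.50, 10.64, 10.64 and 10.58 on the NCI-H716 arrays. EGFR, the receptor of epidermal growth factor, gave 5.02, 5.10, 5.19 and 5.63 on the HUTU-80 arrays, against 9.92, 10.07, 10.22 and 10.55 on the MDST8 arrays and 9.18, 8.93, 9.04 and 8.87 on the NCI-H716 arrays. MET lay near the background level on every HUTU-80 array, and EGFR was above background on the miR-200ba429 array alone. The other probe sets of MET were below background. MERTK, a receptor of phagocytic clearance, was higher in HUTU-80, at 6.90 to 7.11 on the HUTU-80 arrays against 2.64 to 3.35 on the 8 others. Of 50 receptor tyrosine kinases measured, 10 were called higher (20%, against 12.6% of all genes) and 4 lower (8.0%, against 8.82%), and after centring 15 and 3.

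GPX1 and NQO1, enzymes that handle peroxides and quinones, were among the genes with the widest gaps on the lower side. GPX1, which reduces hydrogen peroxide with glutathione, gave 4.14, 3.48, 3.82 and 3.94 on the HUTU-80 arrays, against 12.18, 12.23, 12.17 and 12.40 on the MDST8 arrays and 10.80, 10.98, 11.03 and 10.94 on the NCI-H716 arrays. NQO1, a quinone reductase, gave 3.98, 3.86, 4.03 and 3.84 on the HUTU-80 arrays, against 10.20, 10.78, 10.72 and 10.37 on the MDST8 arrays and 11.48, 11.55, 12.12 and 12.12 on the NCI-H716 arrays. Both genes were below background on all HUTU-80 arrays, at least 71.6-fold and 53.3-fold below the mean of the 8 others. MGST1, a membrane glutathione transferase, was at 3.38 to 3.84 on the HUTU-80 arrays against 9.34 to 10.63 on the 8 others. GLRX, glutaredoxin, was at 3.72 to 4.43 on the HUTU-80 arrays against 9.39 to 10.68 on the 8 others. TXNIP, which binds thioredoxin, was at 3.40 to 3.68 on the HUTU-80 arrays against 7.76 to 11.44 on the 8 others. NNT, which makes NADPH in mitochondria, was at 6.40 to 6.85 on the HUTU-80 arrays against 8.94 to 9.67 on the 8 others. Of 34 such enzymes and partners measured, a family gathered after the values had been seen, 10 were called lower (29.4%, against 8.82% of all genes) and 3 higher (8.82%, against 12.6%), and after centring 9 and 6. GPX4, the lipid peroxide reductase, was among the higher ones, at 11.74 in HUTU-80 against 11.31 in MDST8 and 10.61 in NCI-H716. In the list of drug and xenobiotic enzymes, 10 of 41 were called lower (24.4%), AKR1C1, AKR1C2 and AKR1C3 included, and 4 higher (9.76%). CYP24A1, which breaks down vitamin D, was one of those, at 5.75 to 7.36 on the HUTU-80 arrays against 2.84 to 3.48 on the 8 others.

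Antigen processing and interferon-stimulated genes contributed fewer chosen genes. PSMB8, a subunit of the immunoproteasome, gave 2.67, 2.82, 2.75 and 3.53 on the HUTU-80 arrays, against 8.97, 9.08, 8.86 and 9.06 on the MDST8 arrays and 8.89, 9.003, 8.63 and 9.18 on the NCI-H716 arrays. All HUTU-80 arrays were below background. Of 28 HLA and antigen processing genes, 9 were called lower (32.1%, against 8.82% of all genes) and 1 higher. PSMB9, a further immunoproteasome subunit, was at 4.73 in HUTU-80 against 8.16 in MDST8 and 7.12 in NCI-H716. HLA-F, a class I molecule, was at 6.59 in HUTU-80 against 8.09 in MDST8 and 9.60 in NCI-H716. Probe sets of HLA genes can hybridise to relatives of similar sequence. Among 40 interferon-stimulated genes, 8 were called lower (20%) and 4 higher (10%, against 12.6% of all genes), and after centring 7 and 6. SAMD9 was at 2.71 to 3.00 on the HUTU-80 arrays against 6.29 to 8.41 on the 8 others, and DDX60 was at 3.31 to 4.05 on the HUTU-80 arrays against 6.20 to 7.18 on the 8 others. IFIH1, a sensor of viral RNA, was called higher, at 11.89 in HUTU-80 against 6.64 in MDST8 and 10.08 in NCI-H716. TRIM56, a ubiquitin ligase of antiviral responses, had one of the widest gaps, at 2.47 to 2.84 on the HUTU-80 arrays against 8.58 to 9.56 on the 8 others.

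Transcription factors of the RUNX family differed in which member was expressed. RUNX1 was at 3.57 ± 0.24 in HUTU-80, against 9.43 ± 0.29 in MDST8 and 6.62 ± 0.33 in NCI-H716. RUNX2 was at 3.40 ± 0.23 in HUTU-80, against 8.68 ± 0.21 in MDST8 and 6.87 ± 0.19 in NCI-H716. RUNX3 was at 5.93 ± 0.26 in HUTU-80, against 3.02 ± 0.26 in MDST8 and 3.18 ± 0.21 in NCI-H716. RUNX1 and RUNX2 were at background in HUTU-80 and present in the other lines, while RUNX3 was just above background in HUTU-80 and at background in them. The next probe sets of all 3 genes were below background. The partner subunit CBFB was at 10.93 in HUTU-80 against 10.57 in MDST8 and 10.64 in NCI-H716. Of the GABA-A receptor subunits, GABRA2 was at 7.60 to 7.83 on the HUTU-80 arrays against 2.50 to 2.93 on the 8 others, GABRB1 at 7.35 to 7.70 on the HUTU-80 arrays against 2.79 to 3.42 on the 8 others and GABRA5 at 2.81 to 2.93 on the HUTU-80 arrays against 7.78 to 8.92 on the 8 others. Of 16 subunits measured, gathered after the values had been seen, 2 were called higher (12.5%, against 12.6% of all genes) and 1 lower (6.25%, against 8.82%), and 11 were below background on all 12 arrays.

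Cancer-testis genes, normally expressed in germ cells and switched on in many tumours, included chosen genes on both sides. MAGEA4 gave 11.45, 11.12, 11.43 and 11.61 on the HUTU-80 arrays, against 3.23, 3.13, 3.29 and 3.46 on the MDST8 arrays and 3.49, 3.33, 3.20 and 3.20 on the NCI-H716 arrays. MAGEA6 gave 4.11, 3.73, 3.98 and 3.77 on the HUTU-80 arrays, against 10.46, 10.27, 10.48 and 10.47 on the MDST8 arrays and 12.29, 12.30, 12.27 and 12.42 on the NCI-H716 arrays. MAGEA4 was above background in HUTU-80 and in neither other line, and MAGEA6 the reverse. MAGEA12 was lower, at 3.68 to 4.39 on the HUTU-80 arrays against 8.85 to 10.86 on the 8 others. PAGE4 and TEX15 were higher, PAGE4 at 10.34 to 11.09 on the HUTU-80 arrays against 2.86 to 3.44 on the 8 others and TEX15 at 6.07 to 7.21 on the HUTU-80 arrays against 2.25 to 2.79 on the 8 others. MAGEA6 and MAGEA12 have close relatives of similar sequence, so that their probe sets may read more than 1 of them. Of 46 cancer-testis genes, 5 were called higher (10.9%, against 12.6% of all genes) and 3 lower (6.52%, against 8.82%), shares near those of all genes. After centring 10 were called higher and 3 lower, against 4900 and 1205 of all 19774 genes. Below background on all 12 arrays were 32. Among imprinted genes PLAGL1 was higher at 6.02 to 7.05 on the HUTU-80 arrays against 2.69 to 3.56 on the 8 others, and GRB10, NAP1L5 and SGCE were lower, GRB10 at 4.15 to 5.10 on the HUTU-80 arrays against 7.29 to 9.27 on the 8 others.

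Lists of other lineages were mostly below background in HUTU-80, with single chosen genes among them. Below background on all 12 arrays were 16 of 21 muscle, 15 of 19 endothelial, 26 of 29 immune, 23 of 33 neural and 11 of 34 neuroendocrine markers. Apart from the neuroendocrine list, the low signal was thus mostly shared with the other lines. TNNC1, a troponin of heart and slow muscle, was at 8.93 to 9.58 on the HUTU-80 arrays against 3.17 to 3.41 on the 8 others, while 17 of 21 muscle markers were below background on every HUTU-80 array. The other 3 above background were TNNT1, SMTN and SYNPO2, named after their values had been seen, with TNNT1 at 10.14 to 10.38 on the HUTU-80 arrays against 9.07 to 10.44 on the 8 others. MMRN1, multimerin of platelets and endothelium, was at 8.64 to 9.68 on the HUTU-80 arrays against 2.69 to 3.09 on the 8 others, while 18 of 19 endothelial markers were below background on every HUTU-80 array. All 29 immune cell markers were below background on every HUTU-80 array, and limma called 0 in either direction, with 1 higher and 0 lower at an unadjusted p under 0.05 in both contrasts. After centring the arrays, 3 of the 29 were called higher, against 4900 of all 19774 genes. Their summed linear intensity was 283 to 326 on HUTU-80 arrays and 381 to 1891 on the others. SNAP25, CPE and SCG2, genes of secretory vesicles, were lower, SNAP25 at 2.75 to 3.39 on the HUTU-80 arrays against 8.89 to 10.34 on the 8 others. Of 34 neuroendocrine markers, 8 were called lower (23.5%, against 8.82% of all genes) and 4 higher (11.8%, against 12.6%), NTS, neurotensin, among the higher at 9.62 in HUTU-80 against 3.09 in MDST8 and 6.92 in NCI-H716. TFAP2A, a factor of neural crest and skin, was lower at 4.17 to 4.64 on the HUTU-80 arrays against 8.10 to 10.39 on the 8 others, in a list of 33 neural genes with 4 called higher (12.1%) and 2 lower (6.06%).

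The remaining genes with the widest gaps belong to no list. On the higher side these were KLHL14, RBPMS2, PI15 and SMR3B. KLHL14, an adaptor of ubiquitin ligases, was at 11.42 to 11.61 on the HUTU-80 arrays against 2.88 to 3.83 on the 8 others, and its next probe set gave a gap of 0.91. RBPMS2, an RNA-binding protein of smooth muscle and heart, was at 10.90 to 11.31 on the HUTU-80 arrays against 3.22 to 3.88 on the 8 others. PI15, a protease inhibitor, was at 10.95 to 11.28 on the HUTU-80 arrays against 2.76 to 3.96 on the 8 others, and SMR3B, a salivary protein, was at 10.04 to 10.70 on the HUTU-80 arrays against 2.56 to 3.14 on the 8 others. On the lower side, SCOC, a coiled-coil protein of the Golgi, was at 2.94 to 3.28 on the HUTU-80 arrays against 9.72 to 10.40 on the 8 others. BEX1 and TCEAL8, relatives on chromosome X, were lower, BEX1 at 3.13 to 3.70 on the HUTU-80 arrays against 9.98 to 11.97 on the 8 others. ARHGAP18, which switches off RhoA, was at 2.73 to 3.10 on the HUTU-80 arrays against 9.09 to 10.10 on the 8 others. GNG2, a G protein subunit, was at 2.69 to 3.26 on the HUTU-80 arrays against 8.97 to 11.92 on the 8 others, but its next probe set overlapped between the lines. CEP15, a centrosomal protein, was at 3.10 to 3.57 on the HUTU-80 arrays against 9.22 to 11.02 on the 8 others.

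Across all genes, limma called 2483 genes higher in HUTU-80 than in each other line (12.6%) and 1744 lower (8.82%). All 462 chosen genes were among them, which the rule makes nearly certain, since it used the same contrast. Centring each array on its median moved the whole scale of HUTU-80 against the others by 0.267 and changed the split to 4900 higher and 1205 lower, so that 80.3% of the called genes were higher in place of 58.7%. Differences smaller than that shift have no settled direction, and the median of a list that is negative by less than the shift changes sign with it. The shift is as large as the differences of some lists. Ribosomal proteins had 13 of 51 called higher (25.5%) and 0 lower with a median of 0.18. Cell cycle genes had 10 of 40 called higher (25.0%) and 0 lower with a median of 0.54. After centring 47 ribosomal and 16 cell cycle genes were called higher. Among the lists of the next paragraph, centring gave 5 p53 targets, 5 distal gut, 7 liver and pancreas and 6 imprinted genes called higher. It gave 6 muscle, 5 endothelial, 10 miR-200 target, 8 collagen, 3 cadherin and protocadherin, 3 intestinal and 10 mismatch repair and tumour suppressor genes higher. Called lower were 2 p53 targets, 5 imprinted, 1 endothelial, 4 miR-200 target and 3 collagen genes, and 0 in the other lists of that paragraph. CCNE1, which starts DNA replication, was at 9.12 in HUTU-80 against 7.15 in MDST8 and 6.29 in NCI-H716.

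Mismatch repair and tumour suppressor genes had 7 of 22 called higher (31.8%, against 12.6% of all genes) and 0 lower (against 8.82%). MTAP was at 9.28 in HUTU-80 against 7.27 in MDST8 and 5.76 in NCI-H716. In p53 targets 2 of 27 were called higher (7.41%) and 2 lower (7.41%). SPATA18 was higher at 6.40 to 7.34 on the HUTU-80 arrays against 2.77 to 3.28 on the 8 others. GADD45A was lower at 7.12 to 8.02 on the HUTU-80 arrays against 10.13 to 11.04 on the 8 others. Collagens had 6 of 39 called higher (15.4%) and 4 lower (10.3%). COL27A1 was among the lower, at 4.93 to 6.38 on the HUTU-80 arrays against 8.90 to 9.94 on the 8 others. Cadherins and protocadherins had 2 of 31 called higher (6.45%) and 1 lower (3.23%). Distal gut genes had 3 of 18 called higher (16.7%) and 1 lower (5.56%). Liver and pancreas genes had 3 of 27 called higher (11.1%) and 0 lower. Imprinted genes had 3 of 28 called higher (10.7%) and 6 lower (21.4%). Muscle markers had 3 of 21 higher (14.3%) and 0 lower, and endothelial markers 3 of 19 higher (15.8%) and 1 lower (5.26%). Known targets of miR-200 had 6 of 38 called higher (15.8%) and 5 lower (13.2%). Intestinal differentiation genes had 1 of 44 called higher (2.27%) and 0 lower. Where a list had 0 calls on the lower side, genes with an unadjusted p under 0.05 in both contrasts on that side numbered 2 of the cell cycle genes, 1 of the mismatch repair and tumour suppressor genes and 0 of the ribosomal proteins, muscle markers, liver and pancreas genes and intestinal genes.

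**Figure D5:**
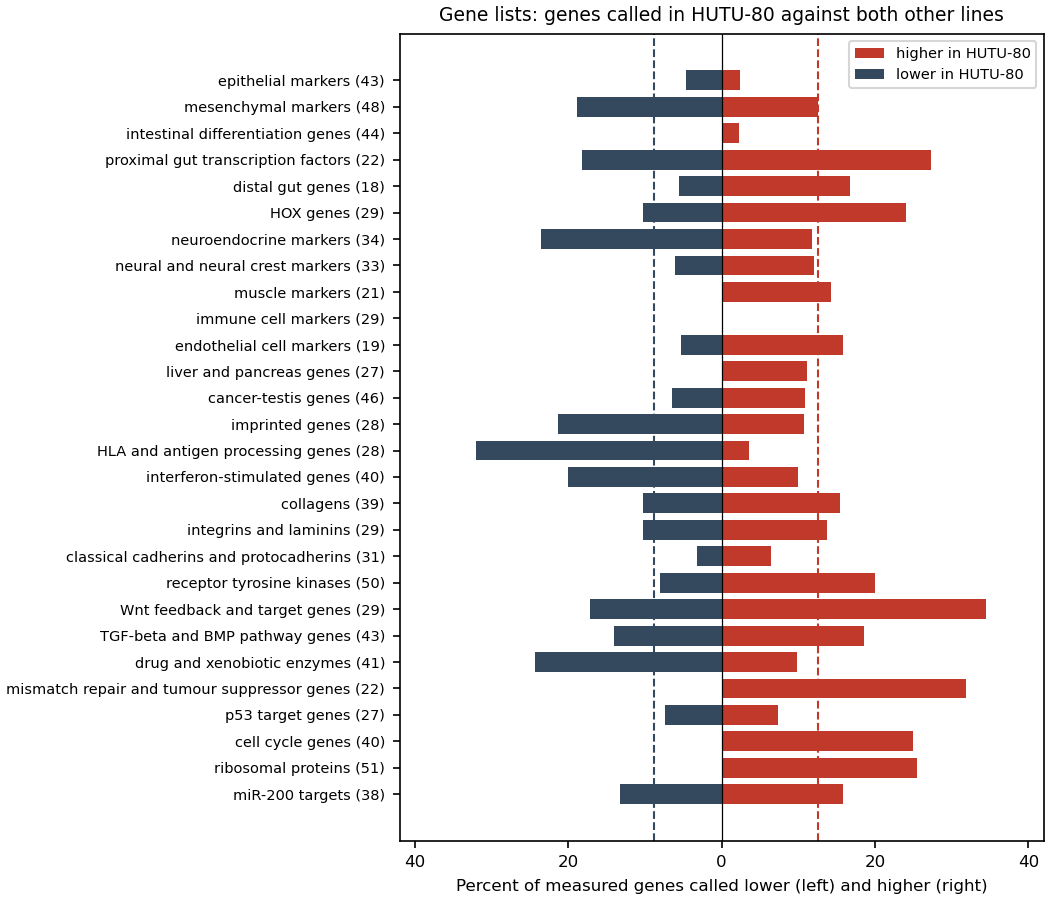
Percent of the measured genes of each of 28 lists that were called lower (left, dark) or higher (right, red) in HUTU-80 than in each other line, with the number of genes measured in brackets; the dashed lines mark the percent of all genes called, 8.82% lower and 12.6% higher. HLA and antigen processing genes reach 32.1% on the lower side, and Wnt genes 34.5% and mismatch repair and tumour suppressor genes 31.8% on the higher side, while no immune cell marker was called.

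Over the 4 HUTU-80 arrays the chosen genes varied more than genes in general. The range had a median of 0.46 for the higher and 0.60 for the lower genes, against 0.36 for all genes, and exceeded 1 log2 unit in 17 of the 224 (7.59%) and 43 of the 238 (18.1%), against 3.94% of all genes. The widest ranges were those of SVIP, ITGA2, EPYC, LRATD2 and TIMP1. SVIP, an inhibitor of protein degradation at the endoplasmic reticulum, gave 3.31, 6.004, 5.23 and 5.00 on the HUTU-80 arrays, against 8.92, 8.91, 9.24 and 9.44 on the MDST8 arrays and 9.47, 9.95, 9.68 and 9.90 on the NCI-H716 arrays. ITGA2 gave 4.87, 7.16, 6.86 and 7.06 on the HUTU-80 arrays. LRATD2 gave 3.49, 5.22, 5.65 and 5.11 on the HUTU-80 arrays. In SVIP, ITGA2 and LRATD2 the control was the lowest of the 4 HUTU-80 arrays, and in EPYC and TIMP1 it was the highest.

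Further genes were at least 2 log2 units apart in the control arrays but not over all arrays, 150 of them higher and 183 lower in HUTU-80. SLC2A3, a glucose transporter, gave 11.64, 11.87, 11.84 and 11.77 on the HUTU-80 arrays, against 5.71, 10.25, 6.43 and 11.37 on the MDST8 arrays and 3.02, 3.10, 2.69 and 2.49 on the NCI-H716 arrays. ANKRD1, a YAP target of muscle and stroma, gave 8.72, 9.46, 9.28 and 9.47 on the HUTU-80 arrays, against 3.04, 8.07, 3.72 and 10.11 on the MDST8 arrays and 2.75, 2.83, 3.11 and 3.04 on the NCI-H716 arrays. In both genes the MDST8 arrays with miR-200c141 and with both clusters lay far above the other MDST8 arrays and near HUTU-80. LOX, which crosslinks collagen, gave 2.64, 2.72, 2.50 and 2.70 on the HUTU-80 arrays, against 9.05, 8.54, 9.39 and 6.49 on the MDST8 arrays and 7.15, 4.95, 6.34 and 3.82 on the NCI-H716 arrays. On the lower side EBF1, FRZB and BRINP3-DT had gaps of 1.97, 1.95 and 1.56 over all arrays, and FLRT3 missed the rule through the miR-200ba429 array of HUTU-80. RBMS3-AS3, NTS and BTG4 were the other 3 on the higher side.

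Other probe sets of the same gene were read on the same RNA samples and add no independent sample. Of the higher genes, 134 had a further probe set, and the next brightest was at least 2 apart in 58 of them (1.13% of all genes by the brightest probe set), did not overlap between HUTU-80 and the others in 100 (12.8% of all genes) and overlapped in 34. It was below background in 56 of the 134. Of the lower genes, 177 had one, which was at least 2 apart in 78 (1.2% of all genes), did not overlap in 137 (8.7% of all genes) and overlapped in 40. It was below background in 43 of the 177. GNG2, PRRX1, GOLGA8A, SYNE1 and LRATD2, named after their values had been seen, overlapped in a further probe set that was above background.

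The chosen genes were spread over the chromosomes, and the median difference of the genes varied by chromosome. It ran from -0.466 on chromosome 7 to 0.489 on chromosome 18, with -0.363 on chromosome 20 and 0.372 on chromosome 22. A median per chromosome does not show whether the whole chromosome is shifted or in which line. On chromosome 18, 9 of 299 genes were chosen as higher and 7 as lower, against 1.13% and 1.2% of all genes. The median difference of its 185 genes above background on any array was 0.489, and 27.4% of its 299 genes were called higher, against 12.6% of all genes. On chromosome 7, 9 of 936 genes were chosen as higher and 17 as lower. The median difference of its 591 genes above background on any array was -0.466, and 21.7% of its 936 genes were called lower, against 8.82% of all genes. MET, EGFR, LAMB1, GRB10, SGCE, SAMD9 and TRIM56 lie on chromosome 7, and DSC1, DSC2, DSC3, DSG1 and KLHL14 on chromosome 18. DNA copy number was not measured, and its part in these differences was not tested.

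The correlation over genes was 0.991 to 0.995 between HUTU-80 arrays, 0.871 to 0.885 between HUTU-80 and MDST8, 0.845 to 0.863 between HUTU-80 and NCI-H716 and 0.839 to 0.855 between MDST8 and NCI-H716. Between 46.6% and 47.2% of genes were above background on HUTU-80 arrays, against 48.4% to 48.8% on MDST8 and 47.4% to 47.9% on NCI-H716 arrays. The 3' minus 5' difference of the actin control probe sets, a sign of RNA integrity, was 2.10 to 2.39 in HUTU-80, 1.497 to 2.019 in MDST8 and 2.33 to 2.63 in NCI-H716. HUTU-80 lay between the other lines in it, and its part in the results was not tested.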

How the data were processed

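Biotin-labelled total RNA was hybridised to Affymetrix U133 Plus arrays. Per the labels, the authors processed the scans with RMA (background correction, quantile normalization, summary of probes), and the deposited table holds 1 log2 value per probe set. The sources used here give no software version or settings. Quantile normalization gives all arrays 1 distribution, so a gene can be read only relative to the others.

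Of 54715 probe sets, the 40920 that name 1 gene were kept, 864 with several genes were left out, and 12835 of 12931 without a name were examined apart. Each of 19774 genes was represented by its brightest probe set. Names came from the platform annotation, checked against RefSeq by Entrez number (40864 matched).

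limma 3.58.1 in R 4.3.3 fitted line and construct, with the 2 HUTU-80 miR-200c141 arrays averaged (11 samples, 5 residual degrees of freedom), a variance trend and Benjamini-Hochberg adjustment over all genes. A gene was called where HUTU-80 differed from both lines in the same direction at 0.05, two-sided. Data were simulated for 19774 genes, 100 changed in HUTU-80 by 1 and 100 by 2 log2 units, the rest alike in all lines. Of these changes 66% of 1 and 100% of 2 log2 units were recovered, with 0 false calls among the unchanged genes. The real data hold many more differences between lines, so the 0 does not carry over to them. The number of arrays limits the precision.

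Named genes were, in each direction, the 15 with the widest gap, every chosen gene in 1 of 28 textbook lists, at most 6 genes a list, those at the threshold, the label's markers, the 5 with the widest range and the 5 largest control-only genes. One such marker and XIST or Y-linked genes are not reported here. The members, the lists and 9 families were chosen with earlier results of these data known, so shares called within them are descriptions and not tests. Alternatives were other probe set rules, gaps of 1 and 3, a background filter, centring, other models and leaving out arrays.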

Additional observations from a re-analysis of the deposited data

Results flagged for a closer look

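Among 109 named genes, 188 groups of 4 arrays of 1 line with a signal above background were examined for an array far from the other 3, and 18 had one. By chance about 1 in 20 groups is marked in this way, and the arrays of a line carry different constructs.

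In HUTU-80, OTX2 was highest with miR-200c141 1:5, at 10.766 against 10.379 to 10.404 on the other 3 arrays. ITGA2 was lowest in the control, at 4.874 against 6.857 to 7.156, and LAMB1 highest with miR-200ba429, at 7.933 against 6.632 to 6.815. GABRA2 was lowest with miR-200c141 1:5, at 7.598 against 7.795 to 7.830, and GABRB1 highest in the control, at 7.696 against 7.350 to 7.409. None of these arrays reached the values of the other lines.

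In MDST8 the control stood apart for DCN (5.476 against 2.997 to 3.045 on the other 3 arrays), TIMP1 (11.138 against 10.434 to 10.534) and TRIM56 (9.298 against 9.525 to 9.556). The miR-200ba429 array did so for S100A6 (12.113 against 12.319 to 12.351) and GATA4 (5.350 against 6.264 to 6.349), the miR-200c141 array for MAGEA6 (10.271 against 10.463 to 10.480), and the array with both clusters for TFAP2A (8.101 against 8.865 to 8.890). In NCI-H716 the control was low for TRIM56 (8.584 against 8.829 to 8.861), the miR-200c141 array high for CDX2 (6.205 against 5.525 to 5.622), and the miR-200ba429 array high for CDH17 (11.084 against 10.894 to 10.912). The NCI-H716 array with both clusters was low for PRRX1 (7.639 against 8.466 to 8.546) and RUNX2 (6.589 against 6.941 to 6.993) and high for DDX60 (7.180 against 6.464 to 6.564).

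Outside the named genes, 12835 probe sets carry no gene name. By the same rule 59 of them were higher in HUTU-80, with a gap of up to 6.49, and 19 were lower, with a gap of up to 5.28. They were not annotated here.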

How the results depend on the processing

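Among counts of genes, 70 alternatives stayed within 1.5 times the main value and 12 did not. Without single arrays the chosen genes numbered 224 to 240 higher and 239 to 257 lower, and the limma calls 2057 to 2569 higher and 1502 to 1789 lower. The counts moved with a gap of 1 (466 higher and 498 lower), a gap of 3 (134 and 123), the 3 control arrays alone (374 and 421), and, an alternative added after seeing the data, with every probe set of a gene required to be apart (124 and 94). The mean of all probe sets gave 138 lower. limma's test against a change of at least 1 log2 unit called 494 higher and 541 lower, and centring the arrays on their medians gave 4900 higher. Stricter or looser distances, fewer arrays and a shifted scale change these counts by construction, and of the 238 lower genes 135 were also chosen with the mean of all probe sets. Among counts of calls within the lists, 199 alternatives stayed within 1.5 times the main value and 25 did not, 11 of these with the background filter. For the 130 named genes, 1784 alternative values of the difference lay within 1 SD of the HUTU-80 arrays of the main one. Leaving out 1 HUTU-80 array cannot move their mean by 1 such SD. All 130 values therefore stayed within it by construction in each of those alternatives, which are part of the 1784. Another 426 moved further, and no called gene reversed. The columns carry no replicate numbers to pair arrays by, but the fit matched the arrays by construct. Without that term limma called 2437 higher and 1651 lower.

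The limits are these. Each line is a single lineage with 1 array per construct (2 for miR-200c141 in HUTU-80), so the differences describe these arrays and not tumour types. Values at background have no order, and bounds rest on the background level chosen. A gene rests on its brightest probe set, and of the 177 lower genes with a further one 78 kept a gap of 2 in it. Similar sequences can share signal, and neither copy number nor methylation was measured.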
